A study of Homo sapiens with 8 samples.

Results

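Genes of hyaluronan synthesis, binding and linkage were examined in A375, an established human melanoma cell line, by RNA sequencing of 8 libraries. In the TNF group, 4 cultures received 50 ng/mL human recombinant TNF for 24 hours. In the NT group, 4 cultures of the same line were kept for the same time without TNF, and both groups were grown in DMEM with fetal bovine serum. The 10 genes described here, HAPLN1, HAPLN3, VCAN, CSPG4, HAS1, HAS2, HAS3, CD44, TNFAIP6 and CEMIP, were found by their symbols among the 60710 genes of the count table, and each had 1 row. They were chosen by their known roles with the expression values of this same TNF and NT comparison in view, so their differences are given as a description and without a test.

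Hyaluronan is a long unsulfated sugar polymer that hyaluronan synthases extrude through the plasma membrane into the pericellular matrix. Lecticans, which are large chondroitin sulfate proteoglycans, bind it through their N-terminal domain, and hyaluronan and proteoglycan link proteins lock that bond. In melanoma this matrix is known for its ties to adhesion, migration and invasion, with CD44 as the main surface receptor.

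By fold change, HAPLN1 had the largest decrease among these genes and HAS2 the largest increase. HAPLN1 was 8.48-fold lower and HAS2 18.0-fold higher in TNF cells than in NT cells. HAPLN3, CD44 and CSPG4 were between 1.36-fold and 1.78-fold higher with TNF, with no overlap between the groups. Of all genes tested, 15.6% were likewise higher with TNF without overlap. The ranges of VCAN, HAS3 and CEMIP overlapped, and HAS1 and TNFAIP6 were close to the limit of detection. These are levels of RNA in whole cultures, in which fewer cells of a type and less RNA per cell cannot be told apart.

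The link proteins HAPLN1 and HAPLN3 differed in opposite directions, so the 300 bases around their start sites, from 250 before to 50 after, are shown in the gene's own direction from RefSeq on GRCh38.p14. The HAPLN1 window lies at chr5:83720806-83721105 and the HAPLN3 window at chr15:88895495-88895794, both on the minus strand. Capitals mark bases that match the NF-kB consensus, a 10-letter motif bound by the transcription factors that TNF receptors activate.
HAPLN1: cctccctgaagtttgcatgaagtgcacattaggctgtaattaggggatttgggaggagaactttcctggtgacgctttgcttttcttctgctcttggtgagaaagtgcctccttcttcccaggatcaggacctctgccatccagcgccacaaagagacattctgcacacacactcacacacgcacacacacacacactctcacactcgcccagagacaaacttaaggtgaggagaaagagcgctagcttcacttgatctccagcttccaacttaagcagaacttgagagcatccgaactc
HAPLN3: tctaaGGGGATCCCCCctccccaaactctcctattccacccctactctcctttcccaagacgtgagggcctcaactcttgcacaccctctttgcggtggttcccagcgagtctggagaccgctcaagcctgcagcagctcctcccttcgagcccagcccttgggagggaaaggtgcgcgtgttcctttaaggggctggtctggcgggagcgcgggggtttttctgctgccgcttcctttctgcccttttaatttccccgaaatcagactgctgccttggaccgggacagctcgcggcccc
In HAPLN3 the match began 245 bases before the start, at 2 places that overlap each other. Both strands were searched for this motif, for the AP-1 motif TGANTCA and for the E-boxes CACGTG and CATGTG, and the HAPLN1 window held none of them. Of 27305 promoter windows of this length, 5.72% held the NF-kB consensus, 7.76% TGANTCA, 7.43% CACGTG and 11.2% CATGTG. Windows were found for 9 of the 10 genes, all but HAS2. HAS3 had CACGTG starting 66 bases before its start and TNFAIP6 had TGANTCA starting 129 bases before its start, while VCAN, HAS1, CD44, CSPG4 and CEMIP had no match. G and C made up 50.0% of the HAPLN1 window and 61.0% of the HAPLN3 window, against a median of 58.3% over all windows. A match describes the letters in the window and does not show binding.

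Libraries held 33317454 to 43125094 counts in the TNF group and 30989787 to 44373296 counts in the NT group. In edgeR's quasi-likelihood test 3948 of 16186 genes passed an adjusted p of 0.05, which was 24.4%; 2345 of them (14.5%) were higher and 1603 (9.90%) lower with TNF. The date in the library titles, read here as the experiment date, pairs the libraries. With it as a block 6397 passed, 3451 higher and 2946 lower. Without the block, the split depended on the scaling, with 2045 higher and 2196 lower under upper-quartile factors and 1925 higher and 2514 lower under library totals. All 5 genes of the TNF response check, NFKBIA, TNFAIP3, CXCL8, ICAM1 and BIRC3, were higher with TNF. Of 8 melanoma and melanocyte markers, 4 were under 1 CPM (counts per 1000000 counts of the library, after TMM scaling) in every library, the defining pigment genes PMEL, MLANA, TYR and DCT, while SOX10 averaged 1177 ± 86.2 CPM in TNF cells and 1025 ± 53.9 CPM in NT cells (SD, n = 4 each). Of the 6 markers tested none was called higher and 1 was lower with TNF, S100B, at 3.05 ± 0.421 CPM in TNF cells and 17.3 ± 3.93 CPM in NT cells (SD, n = 4 each; log2 fold change -2.50, edgeR adjusted p = 6.77e-06). The summed level of the 8 markers, most of it SOX10, ran from 1141 to 1349 CPM in the TNF group and from 1015 to 1165 CPM in the NT group. Ribosomal, 7SK and 7SL RNA took 0.0113% to 0.0118% of counts in 3 libraries (TNF replicate 4, NT replicates 2 and 4) and 0.00223% to 0.00403% in the other 5. Below, these 3 are called the libraries with more ribosomal RNA for short, although the measure does not separate it from 7SK and 7SL RNA.

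Of the 10 genes, 8 passed the filter on low counts, and 5 of these passed the threshold of the fit across all genes, 4 higher and 1 lower. The same 5 were those whose groups did not overlap, a pattern seen for 27.3% of all genes tested (15.6% higher and 11.7% lower with TNF). Because the choice of genes used this comparison, nothing is read from these counts beside the 24.4%.

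**Figure D1:**
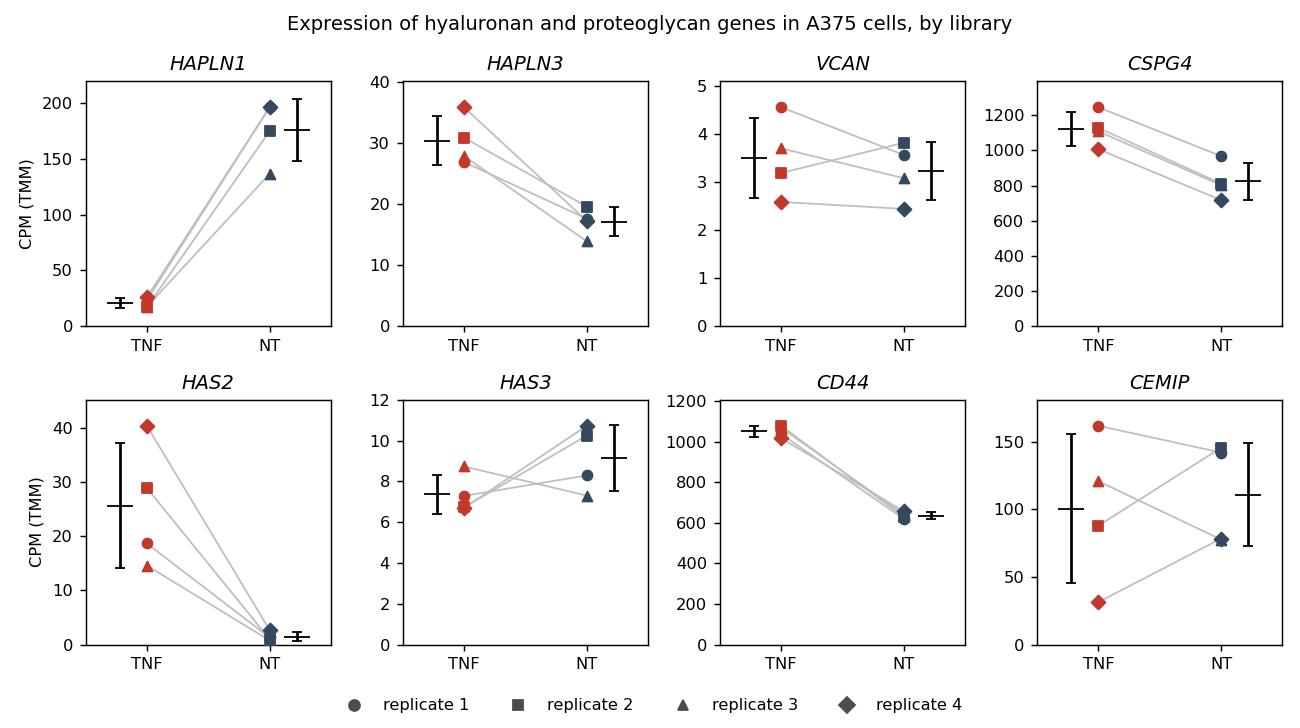
Expression of the 8 genes that passed the filter, in CPM, with 1 panel per gene and 1 point per library (TNF left in red, NT right in blue). Grey lines join libraries of the same experiment date and black bars are the mean ± SD of 4 libraries; HAPLN1 lies at 16.9 to 25.7 CPM in the TNF group and at 136 to 196 CPM in the NT group, without overlap.

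HAPLN1 encodes the link protein first known from cartilage, which binds both hyaluronan and lecticans. Its level was 23.1, 16.9, 17.4 and 25.7 CPM in TNF replicates 1 to 4, against 196, 175, 136 and 196 CPM in NT replicates 1 to 4. Every TNF library was below every NT library, with the highest TNF value in replicate 4 and the lowest NT value in replicate 3. HAPLN1 averaged 20.8 ± 4.34 CPM in TNF cells and 176 ± 28.2 CPM in NT cells (SD, n = 4 each), a log2 fold change of -3.08 (SE 0.17, 95% confidence interval -3.46 to -2.71). Its raw counts were 551 to 805 in the TNF libraries and 4337 to 9188 in the NT libraries, so counting error was small beside the difference. Ordered by log2 fold change, HAPLN1 was the 18th lowest of the 16186 genes tested. The gene spans bases 83637805 to 83720855 of chromosome 5 on the minus strand, with 5 exons in its canonical transcript.

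HAPLN3 encodes another link protein of the family, with a wider tissue distribution than HAPLN1. It stood at 26.9, 30.9, 27.9 and 35.9 CPM in TNF replicates 1 to 4, against 17.6, 19.6, 13.9 and 17.3 CPM in NT replicates 1 to 4. All TNF libraries were above all NT libraries, with the highest value in TNF replicate 4 and the lowest in NT replicate 3. The means were 30.4 ± 4.04 CPM in TNF cells and 17.1 ± 2.37 CPM in NT cells (SD, n = 4 each), a log2 fold change of 0.83 (SE 0.12, interval 0.55 to 1.10). HAPLN3 lies at bases 88877294 to 88895597 of chromosome 15, on the minus strand.

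Since a longer transcript yields more fragments, levels of different genes were compared as CPM per kilobase of exon sequence. On that scale HAPLN1 was 0.483, 0.308, 0.350 and 0.403 times the level of HAPLN3 in TNF replicates 1 to 4, against 6.27, 5.02, 5.52 and 6.40 times in NT replicates 1 to 4. The more abundant link protein transcript was therefore HAPLN3 in all 4 TNF libraries and HAPLN1 in all 4 NT libraries.

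VCAN encodes versican, the widely expressed lectican that link proteins hold on hyaluronan. Its level was 4.56, 3.19, 3.71 and 2.59 CPM in TNF replicates 1 to 4, against 3.57, 3.82, 3.08 and 2.44 CPM in NT replicates 1 to 4. The groups overlapped over most of their range, and replicate 4 was the lowest in each group. VCAN averaged 3.51 ± 0.836 CPM in TNF cells and 3.23 ± 0.608 CPM in NT cells (SD, n = 4 each). The interval of its log2 fold change of 0.12 ran from -0.35 to 0.59. VCAN is the next gene to HAPLN1 on chromosome 5, at bases 83471618 to 83582303 on the plus strand. The 3′ ends of the pair face each other across 55501 bases that hold no other annotated gene. Per kilobase, HAPLN1 was 11.1 to 23.5 times the level of VCAN in the TNF libraries and 105 to 190 times in the NT libraries.

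CSPG4 encodes a large transmembrane chondroitin sulfate proteoglycan, also called NG2, that was identified as a melanoma surface antigen and is not a lectican. It measured 1246, 1129, 1109 and 1007 CPM in TNF replicates 1 to 4, against 968, 811, 803 and 717 CPM in NT replicates 1 to 4. The lowest TNF library was above the highest NT library by a narrow margin, and the order of the replicates was the same in both groups. CSPG4 averaged 1123 ± 98.0 CPM in TNF cells and 824.5 ± 104 CPM in NT cells (SD, n = 4 each), a log2 fold change of 0.45 (SE 0.10, interval 0.22 to 0.67). CSPG4 has pseudogene copies, and its expected counts were not whole numbers in any of the 8 libraries, as happens when reads are shared between rows. The 5 pseudogene rows together held 0.314% to 0.519% of the combined counts of CSPG4 and these rows. Of these, CSPG4P10, CSPG4P11 and CSPG4P12 were tested, with log2 fold changes of 0.21, 0.23 and 0.03 that did not pass the threshold in edgeR (adjusted p = 0.646, 0.632 and 0.964).

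The hyaluronan synthases HAS1, HAS2 and HAS3 are membrane enzymes that differ in the rate and length of the polymer they make. HAS2 measured 18.7, 29.0, 14.6 and 40.5 CPM in TNF replicates 1 to 4, against 1.30, 0.984, 0.755 and 2.70 CPM in NT replicates 1 to 4. The groups were far apart, replicate 4 was the highest and replicate 3 the lowest in each group, and the NT libraries rested on 24 to 84.9 counts each. HAS2 averaged 25.7 ± 11.6 CPM in TNF cells and 1.435 ± 0.871 CPM in NT cells (SD, n = 4 each). The log2 fold change was 4.17 (SE 0.44), and the interval of the fold, 9.12 to 35.5, was the widest in relative terms among the 5 genes without overlap. HAS2 was the 76th highest of the 16186 genes ordered by log2 fold change. Without the 3 libraries that had more ribosomal RNA, the log2 fold change was 4.28.

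HAS3 measured 7.29, 6.72, 8.73 and 6.70 CPM in TNF replicates 1 to 4, against 8.29, 10.2, 7.30 and 10.7 CPM in NT replicates 1 to 4. The groups overlapped, since TNF replicate 3 exceeded NT replicates 1 and 3. The means were 7.36 ± 0.954 CPM in TNF cells and 9.14 ± 1.62 CPM in NT cells (SD, n = 4 each), and the interval of the log2 fold change of -0.31 ran from -0.65 to 0.03. The log2 fold change of HAS3 was -0.04 without the 3 libraries that had more ribosomal RNA. HAS1 had 0, 3, 1 and 0 counts in TNF replicates 1 to 4, against 3, 2, 0 and 1 counts in NT replicates 1 to 4, and was not tested. No library exceeded 3 counts of HAS1, which is the limit that a count of 0 allows, so a difference was not detectable at this depth. Per kilobase, HAS2 was 3.15, 5.28, 2.05 and 7.41 times the level of HAS3 in TNF replicates 1 to 4, against 0.193, 0.118, 0.127 and 0.308 times in NT replicates 1 to 4. HAS2 was thus the leading synthase transcript in every TNF library, and HAS3 was in every NT library.

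HAS2-AS1, the RNA from the opposite strand of HAS2, was also higher with TNF. It had 21.2, 19.1, 41.2 and 33.6 counts in TNF replicates 1 to 4, against 8.09, 9.21, 7 and 9.08 counts in NT replicates 1 to 4, with no overlap. Its log2 fold change was 1.81 (SE 0.33, edgeR adjusted p = 0.00241). The library kit marks strand, but it is not stated whether counting used it, so reads from overlapping parts of HAS2 and HAS2-AS1 may not be told apart. Counts of HAS2 and of HAS3 were each not whole numbers in 7 of the 8 libraries. The same limit of strand holds for HAS3 and for its comparison with HAS2. HAS3 had 207 to 388 counts per library, against 2561 to 5431 for CHTF8. CHTF8, which overlaps HAS3 on the opposite strand and encodes a subunit of a clamp loader, was higher with TNF (log2 fold change 0.32, SE 0.09, edgeR adjusted p = 0.0181). AC105020.4, a long non-coding RNA opposite CSPG4, was higher too (1.66, SE 0.42, edgeR adjusted p = 0.0158). MESD, opposite CEMIP, did not pass the threshold (-0.11, edgeR adjusted p = 0.363), and VCAN-AS1 and CD44-AS1 had at most 1.14 and 3 counts in a library.

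CD44 encodes the transmembrane receptor that carries hyaluronan on the cell surface. It measured 1038, 1079, 1069 and 1017 CPM in TNF replicates 1 to 4, against 619, 628, 640.2 and 656 CPM in NT replicates 1 to 4. The groups were well apart and each was tight, with a coefficient of variation of 2.69% in TNF cells and 2.50% in NT cells, the lowest of the 10 genes in either group. CD44 averaged 1050.4 ± 28.3 CPM in TNF cells and 636 ± 15.9 CPM in NT cells (SD, n = 4 each), a log2 fold change of 0.72 (SE 0.06, interval 0.59 to 0.86). Gene-level counts do not separate the splice forms of CD44.

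TNFAIP6 encodes TSG-6, a secreted protein that binds hyaluronan and was named for its induction by TNF in fibroblasts. It had 3, 10, 11 and 14 counts in TNF replicates 1 to 4, against 13, 3, 4 and 8 counts in NT replicates 1 to 4. The groups overlapped, and the gene did not pass the filter on low counts. In CPM these counts were 0.0861 to 0.453 in the TNF group and 0.0820 to 0.278 in the NT group, under 1 CPM in every library.

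CEMIP encodes a protein that takes part in the cleavage of hyaluronan into smaller pieces. Its level was 162, 87.9, 121 and 31.4 CPM in TNF replicates 1 to 4, against 142, 146, 77.6 and 78.4 CPM in NT replicates 1 to 4. The groups overlapped, and the TNF group held both the highest and the lowest library. The coefficient of variation was 54.8% in TNF cells and 34.3% in NT cells. With 970 to 5638 counts in TNF libraries and 2467 to 6646 in NT libraries, counting error was small beside this spread. CEMIP averaged 100.5 ± 55.1 CPM in TNF cells and 111 ± 38.0 CPM in NT cells (SD, n = 4 each), and the interval of its log2 fold change of -0.14 was wide, from -1.14 to 0.85. The lowest library, TNF replicate 4, was among the 3 with more ribosomal RNA; without those 3 libraries the log2 fold change was 0.17, and the part of ribosomal RNA in the spread was not tested.

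**Figure D2:**
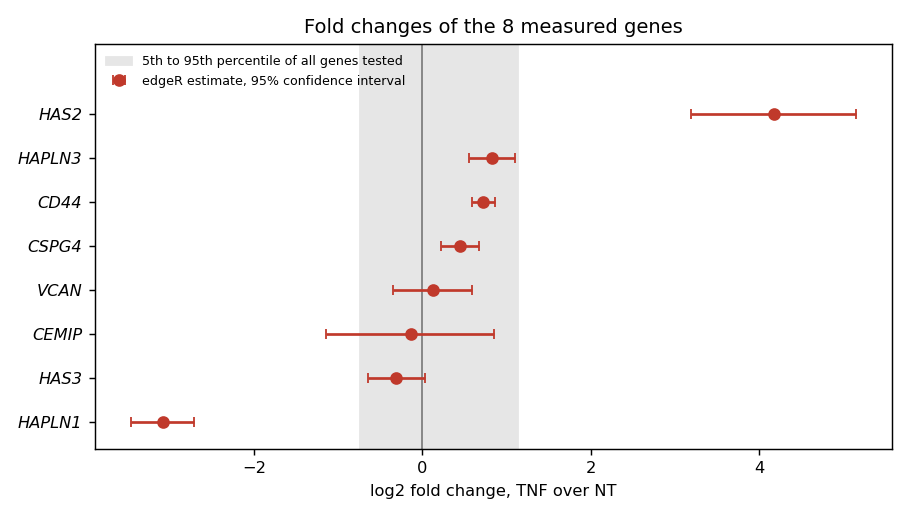
Log2 fold change, TNF over NT, of the 8 genes that passed the filter, with 95% confidence intervals from the edgeR fit across all genes. The grey band spans the 5th to the 95th percentile of all genes tested, -0.74 to 1.14; HAS2 at 4.17 and HAPLN1 at -3.08 lie outside it with their whole intervals.

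Over all 16186 genes the median log2 fold change was -0.004, with a 5th percentile of -0.74 and a 95th percentile of 1.14. HAS2 and HAPLN1 lay outside that range, and the other 6 genes lay within it. HAPLN3, CD44 and CSPG4 differed by small amounts, and the spread between replicates was smaller still.

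The titles held 4 dates, with 1 library of each group per date. They are read here as dates of the experiments, although the titles do not say what they mark. For the 4 NT samples the single files held the library of another date than their titles, so the series table was followed. What depends on that is the number and date of each NT library. This covers the differences within a date, replicate orders shared by the groups, the fits with the date as a block and the fit without the fourth experiment. It also covers the SD of the differences, by which shifts under other settings were judged. Within a date, HAPLN1 was lower with TNF by a log2 CPM difference of -3.08, -3.37, -2.97 and -2.93 in replicates 1 to 4. HAPLN3 differed by 0.61, 0.65, 1.00 and 1.05, and HAS2 by 3.79, 4.80, 4.18 and 3.88 over the same replicates. All of these keep 1 direction on 4 of 4 dates. CD44 differed by 0.63 to 0.78 and CSPG4 by 0.36 to 0.49, again in 1 direction on 4 of 4 dates. For HAPLN1, HAPLN3, HAS2, CD44 and CSPG4 the shared direction follows from groups that do not overlap, whichever libraries are paired. It is therefore no further evidence. In CSPG4 the SD of the differences was 0.06 on the log2 scale, so most of its spread between libraries was shared by both libraries of a date. CEMIP differed by 0.19, -0.73, 0.64 and -1.32, higher on 2 dates and lower on 2. HAS3 was lower on 3 of 4 dates (-0.67 to 0.26), and VCAN was higher on 3 of 4 (-0.26 to 0.35).

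**Figure D3:**
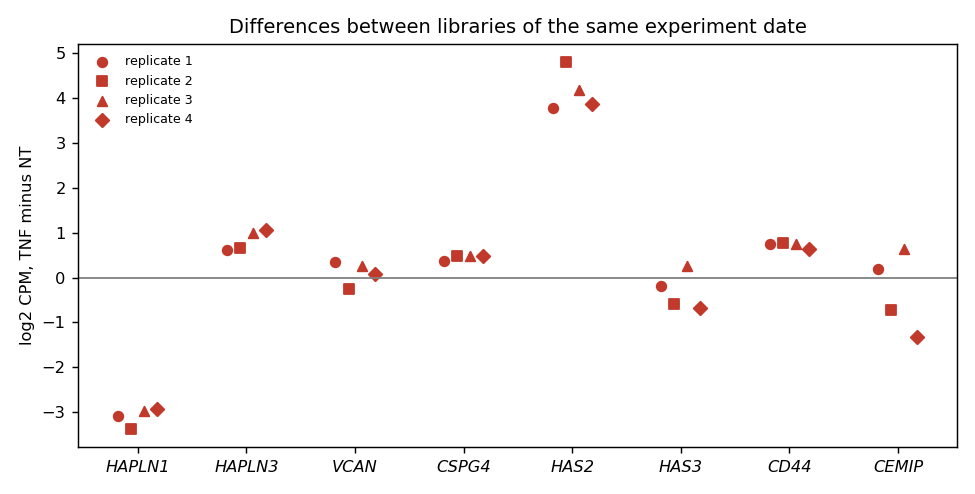
Difference in log2 CPM between the TNF and the NT library of the same experiment date, with 1 point per date and gene. HAPLN1 lies at -3.37 to -2.93 and HAS2 at 3.79 to 4.80, while the points of VCAN, HAS3 and CEMIP fall on both sides of 0.

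Per kilobase of exon, CSPG4 and CD44 were the most abundant of the 10 genes in both groups. CSPG4 averaged 135 CPM per kilobase in TNF cells and 99.5 in NT cells, and CD44 averaged 105 in TNF cells and 63.6 in NT cells. On this scale the lowest CSPG4 library was above the highest CD44 library in each group. The order depends on the exon lengths used, 9992 bases for CD44 and 8290 for CSPG4. In CPM, TNF replicate 4 had 1017 for CD44 and 1007 for CSPG4. In TNF cells HAPLN1 ranked 6 at 3.35 ± 0.699 CPM per kilobase (SD, n = 4), after CEMIP (13.2), HAPLN3 (8.72) and HAS2 (6.06). In NT cells HAPLN1 ranked 3 at 28.4 ± 4.55 CPM per kilobase (SD, n = 4), above CEMIP, whose highest NT library reached 19.1 and whose mean was 14.6. In the TNF order each of these genes overlapped with the next: CEMIP ranged from 4.12 to 21.2, HAPLN3 from 7.72 to 10.3, HAS2 from 3.45 to 9.55 and HAPLN1 from 2.73 to 4.15. In NT cells HAPLN3 (4.90), HAS3 (1.76), HAS2 (0.338) and VCAN (0.220) followed; among these 4 the ranges of HAS2 and VCAN overlapped and those of the other neighbours did not. VCAN, TNFAIP6 and HAS1 took the last 3 places in both groups.

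**Figure D4:**
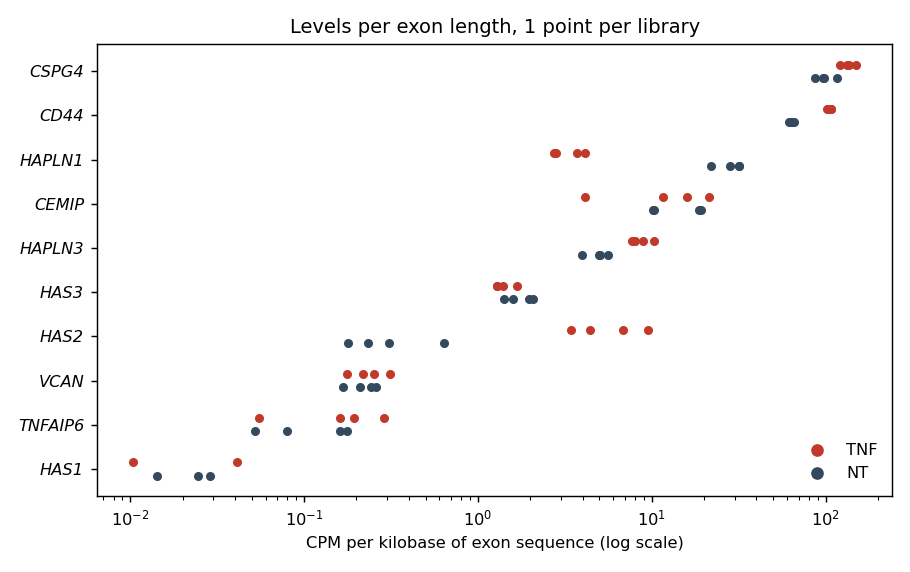
Level of the 10 genes per kilobase of exon sequence, in CPM per kilobase on a log axis, with 1 point per library, TNF (red) above NT (blue). Libraries with 0 counts of HAS1 are not drawn; HAPLN1 lies at 2.73 to 4.15 in the TNF group and at 22.02 to 31.7 in the NT group, and HAS2 lies at 3.45 to 9.55 in the TNF group and at 0.178 to 0.636 in the NT group.

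Other genes of the pathway were taken as whole lists, which were also drawn up with earlier results of these data known. Over all genes tested, 24.4% passed (14.5% higher and 9.90% lower with TNF), and the median log2 fold change was -0.004. The counts and medians of the lists are a description beside these values, and nothing is read from them about a pathway. Hyaluronan is built from UDP-glucuronic acid and UDP-N-acetylglucosamine. Of 8 genes that make these precursors, 5 were higher, 1 was lower and 2 did not pass the test, with a median log2 fold change of 0.36. GFPT2, an isoform of the rate-limiting enzyme of the hexosamine pathway, measured 165, 173, 167 and 226 CPM in TNF replicates 1 to 4, against 56.1, 52.1, 57.9 and 56.9 CPM in NT replicates 1 to 4. It was higher in all 4 TNF libraries (log2 fold change 1.71, SE 0.11, edgeR adjusted p = 1.60e-06). UAP1, which makes UDP-N-acetylglucosamine, was higher (0.58, SE 0.09, edgeR adjusted p = 0.00102), while UGP2, which makes UDP-glucose, was lower (-0.58, SE 0.08, edgeR adjusted p = 4.02e-04). GFPT1 (0.29), PGM3 (0.50) and NAGK (0.43) were the other 3 higher genes, named after their values were seen.

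**Figure D5:**
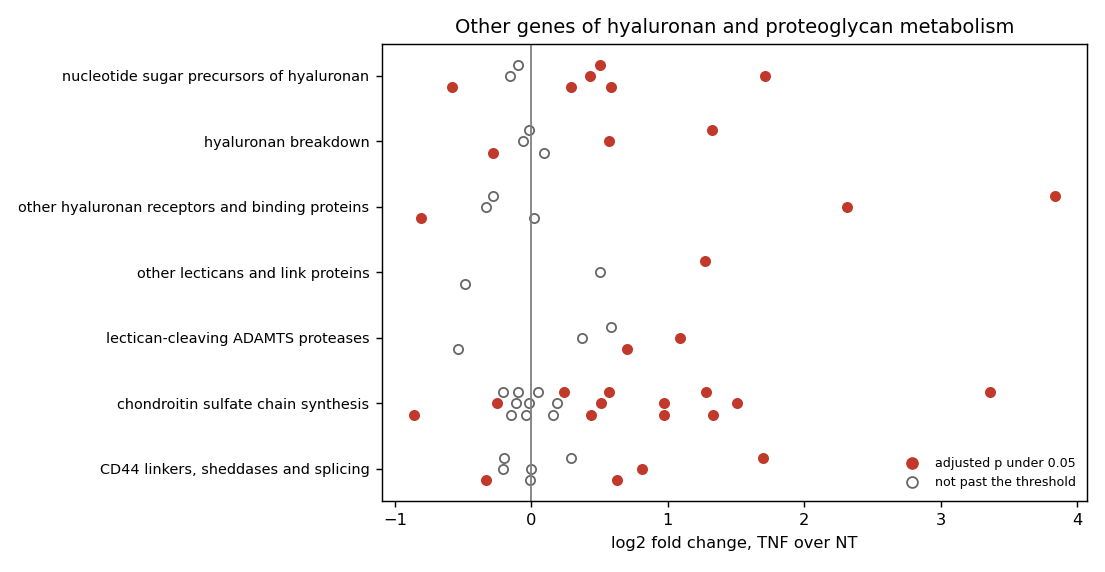
Log2 fold change, TNF over NT, of the tested genes of 7 lists of hyaluronan and proteoglycan metabolism, with 1 point per gene. Filled points passed an edgeR adjusted p of 0.05 and open points did not; PTX3 at 3.84 and CHST15 at 3.36 lie farthest to the right.

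Of 9 genes of hyaluronan breakdown 6 were tested and 2 were higher, with a median log2 fold change of 0.03. CEMIP2, a transmembrane relative of CEMIP linked to hyaluronan degradation, averaged 532 ± 89.3 CPM in TNF cells and 213 ± 12.5 CPM in NT cells (SD, n = 4 each). Its log2 fold change was 1.32 (SE 0.11, edgeR adjusted p = 1.54e-05), whereas the CEMIP groups overlapped. HYAL3, a member of the hyaluronidase family, was higher (0.57, SE 0.09, edgeR adjusted p = 7.95e-04).

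Of 16 other hyaluronan receptors and binding proteins 6 were tested, of which 2 were higher, 1 was lower and 3 did not pass, with a median of -0.13. With the experiment date as a block, or with upper-quartile factors or library totals, 5 passed. PTX3, a secreted pentraxin that helps to crosslink hyaluronan in the ovarian cumulus matrix, measured 91.5, 137, 99.1 and 161 CPM in TNF replicates 1 to 4, against 6.92, 8.91, 7.36 and 11.04 CPM in NT replicates 1 to 4. The groups were far apart, with a log2 fold change of 3.84 (SE 0.22, edgeR adjusted p = 1.23e-06). TLR2, an innate immune receptor proposed to sense hyaluronan fragments, averaged 2.81 CPM in TNF cells and 0.559 CPM in NT cells (2.31, SE 0.28, edgeR adjusted p = 1.66e-04). ITIH5, of the family whose heavy chains bind hyaluronan, was lower (-0.81, SE 0.26, edgeR adjusted p = 0.0476). Its call was lost, with adjusted p of 0.0633 to 0.120, on leaving out TNF replicate 1, 2 or 3 or NT replicate 1, 2 or 4. HMMR, an intracellular hyaluronan-binding protein of mitosis, did not pass (0.02, edgeR adjusted p = 0.944).

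Of 5 other lecticans and link proteins 3 were tested. ACAN, the cartilage lectican aggrecan, measured 76.0, 100.1, 77.3 and 158 CPM in TNF replicates 1 to 4, against 36.8, 42.5, 29.3 and 61.6 CPM in NT replicates 1 to 4. All TNF libraries were above all NT libraries, and replicate 4 was the highest in each group. The log2 fold change was 1.27 (SE 0.28, edgeR adjusted p = 0.00822), with an adjusted p of 0.0707 when no filter on low counts was used. BCAN (0.50, edgeR adjusted p = 0.227) and HAPLN4 (-0.49, edgeR adjusted p = 0.157) did not pass, both with means under 1.5 CPM in each group. Of 6 ADAMTS proteases that cleave lecticans 5 were tested and 2 were higher, with 4 past the threshold in the fit with the experiment date as a block. These 2 were ADAMTS9 (1.09, SE 0.20, edgeR adjusted p = 0.00242) and ADAMTS1 (0.70, SE 0.15, edgeR adjusted p = 0.00656).

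Chondroitin sulfate is the chain that VCAN, ACAN and CSPG4 carry. Of 22 genes that build it 21 were tested, of which 10 were higher, 2 were lower and 9 did not pass, with a median log2 fold change of 0.19. CHST15, which adds a further sulfate to sulfated N-acetylgalactosamine, averaged 3.89 ± 0.947 CPM in TNF cells and 0.375 ± 0.0652 CPM in NT cells (SD, n = 4 each), with a log2 fold change of 3.36 (SE 0.25, edgeR adjusted p = 6.14e-06). CHST7, another sulfotransferase, was higher by 1.51 (SE 0.12, edgeR adjusted p = 1.11e-05). DSE, the epimerase that turns chondroitin into dermatan units, was higher by 1.33 (SE 0.16, edgeR adjusted p = 1.24e-04). The 2 lower genes were CSGALNACT1 (-0.86) and CHSY1 (-0.25), which start and extend the chain. Genes of chain start and extension were also among the 10 higher ones: XYLT1 (0.97), CSGALNACT2 (0.51) and CHPF2 (0.57). These lower and higher genes were named after their values were seen.

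Of 10 genes of CD44 linkage, shedding and splicing 9 were tested, of which 3 were higher and 1 was lower; 7 passed with the experiment date as a block. MMP14, a membrane metalloproteinase that can shed CD44, averaged 404 ± 50.0 CPM in TNF cells and 124 ± 16.04 CPM in NT cells (SD, n = 4 each), with a log2 fold change of 1.70 (SE 0.12, edgeR adjusted p = 3.14e-06). MSN and RDX, which tie CD44 to the actin cortex, were higher by 0.81 (SE 0.08, edgeR adjusted p = 5.02e-05) and 0.63 (SE 0.08, edgeR adjusted p = 3.03e-04). Their relative EZR did not pass (-0.20, edgeR adjusted p = 0.197). The lower gene, named after its value was seen, was ANK3 (-0.33, edgeR adjusted p = 0.0393), an adaptor to spectrin.

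Around HAPLN1 and VCAN, within 1000000 bases, 4 other genes were tested and 1 was lower. Around HAPLN3 27 were tested, with 3 higher and 1 lower. Of these 31 genes 5 passed, beside 24.4% of all genes tested, and nothing is read from these counts. These 5 calls became 10 with the experiment date as a block, 8 with library totals, 3 without NT replicate 2 or NT replicate 4, and 3 once the 3 libraries richer in ribosomal RNA were left out. EDIL3, a secreted integrin ligand whose gene lies 219699 bases from HAPLN1, averaged 1.204 ± 0.295 CPM in TNF cells and 2.32 ± 0.614 CPM in NT cells (SD, n = 4 each). Its log2 fold change was -0.94 (SE 0.26, edgeR adjusted p = 0.0215), and the adjusted p was 0.0544, 0.0511, 0.0711 and 0.0534 without TNF replicate 1, TNF replicate 2, NT replicate 2 and NT replicate 4. Near HAPLN3, ACAN lies 1941 bases away on the plus strand, so the 3′ ends of the 2 genes face each other. Both genes had TNF libraries above all NT libraries, as did 15.6% of all genes tested. ANPEP, which encodes the surface aminopeptidase CD13, was higher by 1.15 (SE 0.14, edgeR adjusted p = 1.52e-04) and AEN, an exonuclease gene, was lower (-0.52, SE 0.12, edgeR adjusted p = 0.00863). AC103982.1, a long non-coding RNA, had a log2 fold change of 0.97 (SE 0.29, edgeR adjusted p = 0.0321) from 10 to 40 counts per library, and the groups overlapped. Its call was lost, with adjusted p of 0.0537 to 0.0886, on leaving out TNF replicate 1, 3 or 4 or NT replicate 1, 2 or 4. MFGE8, 3086 bases from HAPLN3, did not pass (-0.02, edgeR adjusted p = 0.958).

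The genes whose pattern was most like that of HAPLN1 were sought by the root mean square difference of gene-centred log2 CPM over the 8 libraries, among 12361 genes. FXYD3, a regulator of ion transport, and AK4, a mitochondrial adenylate kinase, came closest at 0.37 each, with log2 fold changes of -2.49 and -2.47. S100B, a calcium-binding protein used as a melanoma marker, and ITGA9, an integrin subunit, followed at 0.40 each, with -2.50 and -2.53. The non-coding RNA H19 was next at 0.42, with a log2 fold change of -3.02. These values are a description, since HAPLN1 was chosen for its pattern.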

How the data were processed

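RNA was measured in 8 A375 libraries, 4 TNF and 4 NT, grouped by the treatment label and numbered by the date in the titles. That this is the date of the experiment is assumed. The authors prepared stranded polyadenylated RNA libraries, aligned reads with bowtie2 (its version is not given in the sources used here) to the GRCh38 transcriptome and ran RSEM 1.2.25 for counting. Deposited values are unnormalized expected counts per gene. For the 4 NT samples the single files hold the library of another date than the title, so the series table, whose columns match the titles, was used throughout; the numbering and dates of the NT libraries, and all that uses them, depend on this. Deviations from the group mean in libraries of the same date had correlations of 0.35, 0.17, 0.24 and 0.46 over 16186 genes. Correlations between different dates are not given here, so the pairing rests on the dates in the titles. Within a group no pair of libraries agreed within counting noise (lowest chi-square over its degrees of freedom, 12).

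Counts were rounded, filtered with edgeR (minimum count 10, total 15), scaled by TMM and tested with edgeR 4.0.16 in R 4.3.3 (robust quasi-likelihood, with no term but treatment). P-values were adjusted by Benjamini-Hochberg over 16186 genes and called at 0.05. The standard errors given are the coefficient over the square root of F, and confidence intervals are at 95%. Log2 CPM used a prior count of 2. Positions and exon lengths are from GENCODE 44 on GRCh38, in which 60437 of 60666 gene IDs were found. Alternatives were DESeq2 1.42.0, limma 3.58.1, other scalings and filters, the date as a block, a threshold of 0.01 and leaving out libraries. The test was also run on simulated counts drawn without an effect of date, so that run does not bear on the pairing.

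The 10 genes and all lists were chosen with earlier results of these data known. Named beside them were up to 3 genes of each list with the largest change past the threshold, up to 5 neighbours past it, antisense and pseudogene rows of the 10 genes, and the 5 genes most like HAPLN1. Other genes were named after their values were seen. A gene of the breakdown list that this rule names is not reported here. Of the marker lists of other cell types, summed CPM was 12.5 to 21.9 in TNF and 11.7 to 21.9 in NT libraries for 6 fibroblast genes, 56.8 to 62.4 in TNF and 57.9 to 74.2 in NT for 4 keratinocyte genes, 43.1 to 72.3 in TNF and 21.1 to 27.2 in NT for 5 immune genes, of which CD68 alone passed 1 CPM, and 2.12 to 3.43 in TNF and 0.825 to 1.80 in NT for 3 endothelial genes; their part in the results was not tested.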

Additional observations from a re-analysis of the deposited data

Results flagged for a closer look

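Each group of 4 libraries was examined for a value far from the other 3 in log2 CPM, over 70 groups of the genes named here, of which chance alone flags about 3.5. None of the 4 that stood apart belonged to HAPLN1 or the other genes of the report's set. GFPT2 was 7.82 in TNF replicate 4, against 7.36 to 7.44 in the other TNF libraries. FXYD3 was 2.80 in TNF replicate 2, against 3.21 to 3.24 in the other TNF libraries. AC103982.1 was -0.65 in TNF replicate 2, against -0.11 to -0.03 in the other TNF libraries. ADAMTS9 was 2.51 in NT replicate 2, against 2.34 to 2.37 in the other NT libraries.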

How the results depend on the processing

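Over 19 alternatives the log2 fold changes ranged from -3.20 to -3.00 for HAPLN1, 0.74 to 0.90 for HAPLN3, 3.87 to 4.62 for HAS2, 0.64 to 0.75 for CD44, 0.36 to 0.53 for CSPG4, -0.40 to -0.04 for HAS3, -0.04 to 0.24 for VCAN and -0.48 to 0.17 for CEMIP. Each value was judged against the SD of that gene's 4 differences within a date, which was 0.06 for CD44 and CSPG4 and 0.88 for CEMIP. By that measure 148 values moved by less and 4 by more. With library totals CD44 was 0.64 and CSPG4 0.36, and leaving out single libraries moved CSPG4 between 0.38 (without NT replicate 4) and 0.53 (without NT replicate 1). Genes called over all genes were 3948, 6397 with the experiment date as a replicate block (3451 higher, 2946 lower), 2320 at a threshold of 0.01 and 4504 with DESeq2. The block changed the counts of the receptor list to 5 (3 without it), of the ADAMTS list to 4 (2 without it), of the CD44 list to 7 (4 without it) and of the neighbours to 10 (5 without it), and the other lists stayed within 1.5 times. Upper-quartile factors and library totals also gave 5 receptors, library totals gave 8 neighbours, a threshold of 0.01 gave 3 precursor genes and 3 neighbours, and no filter gave 0 lecticans (ACAN adjusted p 0.0707, edgeR). Neighbours numbered 3 without the 3 libraries with more ribosomal RNA, and 3 to 6 when single libraries were left out (3 without NT replicate 2 or 4). The cause was not tested. Of the checks of the other named genes, 460 kept direction and call and 26 kept direction but lost the call, among them AC103982.1 under 9 settings, ITIH5 under 8, EDIL3 under 5 and ACAN under 1. ITIH5 had an adjusted p of 0.0628 with limma voom and 0.0806 after leaving out the 3 libraries richer in ribosomal RNA, and EDIL3 one of 0.0986 without these. Low counts limit HAS1 and TNFAIP6, and the NT level of HAS2.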
